A study of Mus musculus with 6 samples.

Results

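The genes described here are 10 transcription factors of oligodendrocyte specification and differentiation, Myrf, Olig1, Olig2, Sox10, Nkx2-2, Nkx6-2, Zfp488, Tcf7l2, Zeb2 and St18, in mouse oligodendrocyte precursor cells (mOPCs) with siRNA knockdown of Qk, the gene of the RNA-binding protein Qki. They were chosen by name, and all 10 were found among the 23038 genes listed for each library. 9 were matched by symbol, and Myrf, listed under the older symbol Gm98, was matched by its Entrez identifier. The study used poly-A RNA from primary mOPCs that were immunopanned from E14.5 mouse embryos and collected 72 h after transfection. 3 libraries came from cells given control siRNA (siNC) and 3 from cells given siRNAs against Qk (siQk), the gene that encodes Qki. No allele, strain or other agent is named for either group. 3 different Qk siRNAs were used, and the sources used here do not say which library received which, or whether they were mixed. The libraries are described as biological replicates, and whether each came from separate animals is not stated, so that the spread given here is that between these libraries.

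Oligodendrocyte precursors are made from neural progenitors under Olig2, keep dividing while they express Olig1, Olig2, Sox10 and Nkx2-2, and differentiate into myelin-forming oligodendrocytes when Myrf is induced. Olig1 and Olig2 are basic helix-loop-helix factors, Sox10 is an HMG-box factor that acts with Olig2 and later with Myrf at myelin genes, and Nkx2-2 and Nkx6-2 are homeodomain repressors. Tcf7l2 is an effector of Wnt signalling, Zfp488 a zinc-finger corepressor that binds Olig2, Zeb2 a Smad-interacting zinc-finger homeodomain factor, and St18 (Myt3) a zinc-finger factor related to Myt1. Qki proteins bind ACUAAC-like elements in RNA and act in splicing, stability and transport of transcripts, many of them from myelin genes.

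Qk, the targeted gene, was lower in every library of its group. Its level was 209, 206 and 163 RPKM (tags scaled by exon length and library total) in siNC replicates 1, 2 and 3 and 51.3, 76.6 and 36.2 RPKM in siQk replicates 1, 2 and 3. The log2 fold change was −1.98 (SE 0.28, edgeR FDR 0.00311), and the residual RPKM was 28.4% of the siNC mean. Log2 and fold values here and below come from counts scaled by TMM library factors, unless another scaling is named. RPKM uses the library total. The 2 measures can therefore differ in size and, for small changes, in sign. Library totals ranged from 58166490 to 141045937 tags. siNC replicate 1 had the smallest total, and ribosomal Rn45s took 3.12% of its tags, while the share elsewhere was 0.169 to 0.389%. All 8 precursor markers were present, with summed levels of 535 to 604 RPKM in siNC and 549 to 595 RPKM in siQk. Of 8 microglia markers 7 stayed under 1 RPKM in every library, C1qa among them at 0, with sums of 0.734 to 3.32 RPKM in siNC and 0.337 to 0.413 RPKM in siQk. Of 8 fibroblast and vascular markers 7 also stayed under 1 RPKM, with Cldn5 at 0 and sums of 2.42 to 4.95 RPKM in siNC and 3.58 to 4.79 RPKM in siQk. The 8 astrocyte markers summed to 207 to 307 RPKM in siNC and 179 to 207 RPKM in siQk. S100b, which oligodendrocyte lineage cells also express, was the highest, at a mean of 140 RPKM in siNC and 157 RPKM in siQk. Mean RPKM in siNC and siQk was 69.1 and 9.85 for Gfap, 25.5 and 10.9 for Slc1a3, 17.5 and 9.34 for Slc1a2 and 7.02 and 1.69 for Aldh1l1. Aqp4 stayed under 1 RPKM, and Gja1 and Gjb6 were near 0. The 8 neuron markers summed to 195 to 271 RPKM in siNC and 199 to 250 RPKM in siQk, led by Tubb3 and Map2. The part of these lists in the results below was not tested. In bulk RNA, fewer cells of a type and less RNA per cell cannot be told apart.

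In siNC cells Olig1 was the most abundant of the 10 per length of transcript, at 268 ± 11.2 RPKM (SD, n = 3). Sox10 followed at 158 ± 16.2 RPKM and Olig2 at 132 ± 9.62 RPKM, with ranges over libraries that overlapped each other. Myrf came below them, without overlap, at 79.5 ± 17.6 RPKM. Zeb2, Zfp488 and Nkx2-2 came next at 33.3 ± 5.05, 29.4 ± 4.90 and 23.0 ± 5.73 RPKM, and each overlapped its neighbour in the order. Tcf7l2 was at 9.53 ± 1.07 RPKM, St18 at 3.68 ± 0.855 RPKM and Nkx6-2 at 1.71 ± 0.137 RPKM, all without overlap with a neighbour. In siQk cells Olig2 stood above Sox10, and Nkx2-2 above Zeb2 and Zfp488, in both cases with ranges that did not overlap. St18 fell into the range of Nkx6-2, at 1.45 ± 0.255 against 1.15 ± 0.248 RPKM. Between 144 and 435 tags lay behind each Nkx6-2 value and between 640 and 2593 behind each St18 value, while no other member had fewer than 3032 tags in a library.

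**Figure D1:**
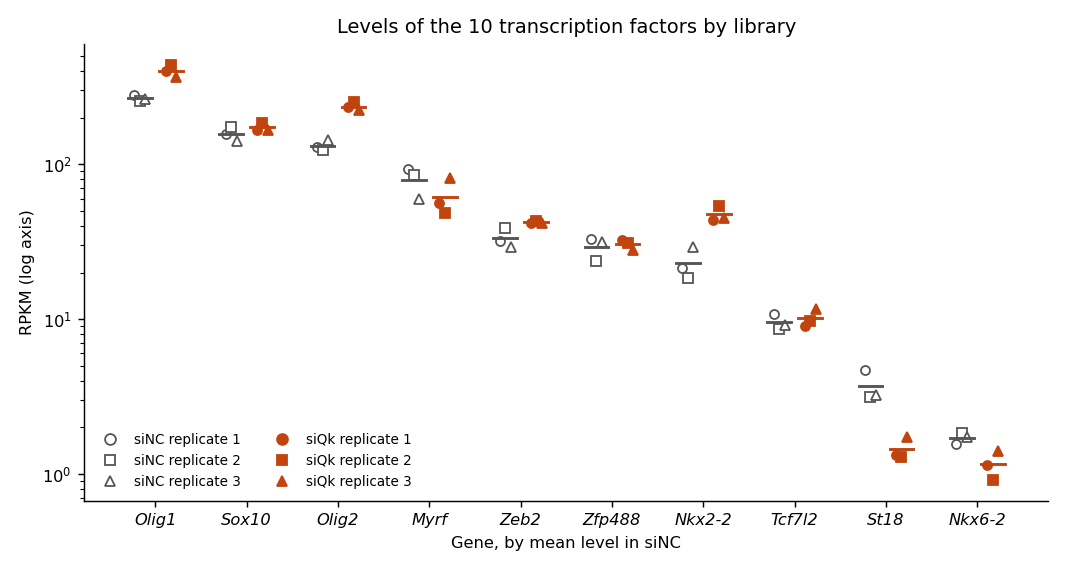
RPKM of the 10 transcription factors in each library on a log axis, with open grey symbols for siNC, filled red symbols for siQk, 1 symbol shape per replicate number and a bar at the group mean. The siQk points of Olig1, Olig2, Nkx2-2 and Zeb2 lie above all siNC points, and those of St18 and Nkx6-2 lie below. Those of Sox10, Zfp488, Tcf7l2 and Myrf overlap the siNC points. Zeb2 was not called.

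The 10 factors did not move in 1 direction. Olig1, Olig2 and Nkx2-2 rose, St18 and Nkx6-2 fell, and Sox10, Zfp488, Tcf7l2, Zeb2 and Myrf did not pass the test (edgeR quasi-likelihood, P below 0.01 and FDR below 0.1). The 3 higher members stand beside 13.8% of all 12505 tested genes called higher, and the 2 lower members beside 17.2% called lower. In either direction 5 of 10 were called, against 31.0% of tested genes. The median log2 fold change of the members was −0.04, against 0.01 for all tested genes, and the median absolute value was 0.48 against 0.25. The RPKM ranges of the groups did not overlap for 6 of the 10, against 58.3% of tested genes. With RPKM rescaled by TMM factors this held for 5 of the 10, against 54.3%, since Zeb2 then overlapped. The direction of the tested genes as a whole depended on the scaling. Of 3879 calls 55.4% were lower with TMM factors, 44.4% of 4019 with upper quartile factors and 31.4% of 4354 with library size alone, which shifted the median of all genes to 0.16. Olig1, Olig2, Nkx2-2, St18 and Nkx6-2 kept their direction under each of these scalings.

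**Figure D2:**
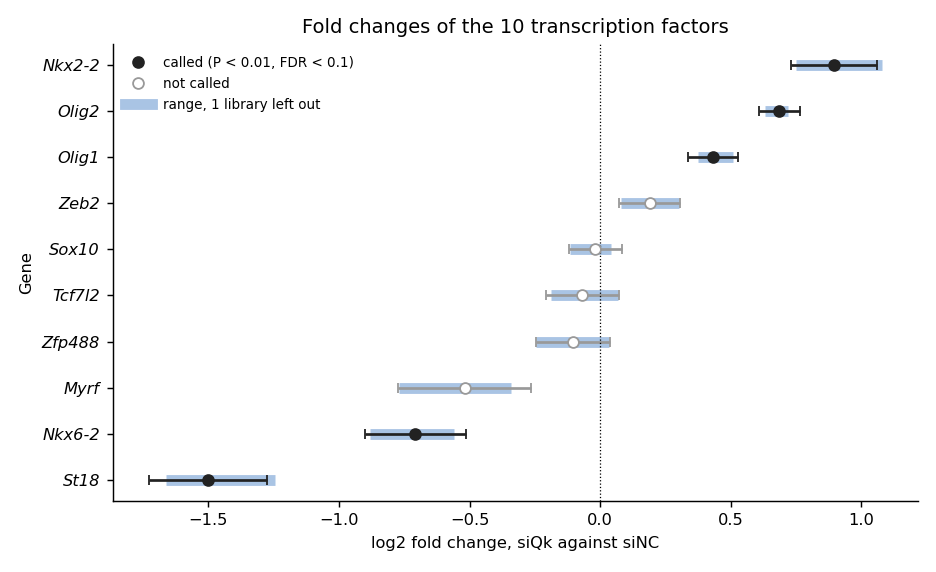
Log2 fold change of each transcription factor in siQk against siNC from the fit over all tested genes, with bars of 1 SE, filled points for called genes and pale blue bands for the range when 1 library at a time was left out. The called values run from −1.50 for St18 to 0.90 for Nkx2-2, and the bands of Sox10, Zfp488 and Tcf7l2 cross 0.

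Olig1 and Olig2, the helix-loop-helix factors that stand 41.1 kb apart on chromosome 16, were both higher in siQk. Olig2 (chr16:91225457-91228677, plus strand, mm10) was at 130, 124 and 143 RPKM in siNC replicates 1, 2 and 3 and at 235, 251 and 223 RPKM in siQk replicates 1, 2 and 3. Every siQk library lay above every siNC library. The rise was 1.61-fold with TMM factors (log2 0.69, SE 0.077, FDR 0.00163). The mean RPKM, scaled by library total alone, went from 132 ± 9.62 to 236 ± 14.0. Olig2 stayed called in each fit that left out a library, at log2 values of 0.63 to 0.72.

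Olig1 (chr16:91269772-91271933, plus strand), which is needed for myelination and repair, was at 280, 257 and 265 RPKM in siNC replicates 1, 2 and 3 and at 398, 440 and 369 RPKM in siQk replicates 1, 2 and 3. The groups again did not overlap. The rise was 1.35-fold (log2 0.43, SE 0.095, FDR 0.0141). It missed the P threshold without siNC replicate 2 (log2 0.39, FDR 0.0360), without siQk replicate 1 (0.44, FDR 0.0543) and without siQk replicate 2 (0.37, FDR 0.0528). The quotient of Olig2 over Olig1 within a library, which no library scaling enters, was 0.464, 0.481 and 0.538 in siNC and 0.590, 0.570 and 0.605 in siQk. It was thus higher in all 3 siQk libraries (exact two-sided permutation p = 0.1, the smallest that 3 against 3 can give). Of the exon bases of Olig1, 7.26% overlap Gm15966 on the opposite strand, and the library kit does not mark strand, so that their reads cannot be told apart.

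The 3'UTRs of Olig1 and Olig2 differ in whether they hold the core sequence that Qki proteins are known to bind. Other parts of their transcripts were not searched for it. The longest annotated 3'UTR of Olig2 (1306 nt, GENCODE on GRCm38, the assembly also called mm10) holds 1 ACTAAC or ACTAAT on the transcript strand, and that of Olig1 (1274 nt) holds none. The match is shown with 12 bases on either side, in capitals, because it is the only one in the 3 members that rose, and it lies at chr16:91227681-91227710 on the plus strand.

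Olig2 3'UTR: ggaagtctaaaaACTAACtttccggtgtac

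Among tested genes with a 3'UTR within 25% of the length of that of Olig2, 31.1% hold such a match, and among all 10827 with an annotated 3'UTR, 36.2% do. A match is a description of the letters and not a site.

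Nkx2-2 (chr2:147177546-147194243, minus strand), a homeodomain repressor of precursors that times differentiation, rose the most of the 10. Its level was 21.3, 18.4 and 29.4 RPKM in siNC replicates 1, 2 and 3 and 43.8, 53.8 and 45.1 RPKM in siQk replicates 1, 2 and 3. The lowest siQk library lay well above siNC replicate 3, the highest of the controls. The rise was 1.86-fold (log2 0.90, SE 0.16, FDR 0.00766), larger in size than that of 90.1% of tested genes, and it stayed called in each fit that left out a library (0.75 to 1.08). Of its exon bases 9.67% overlap the antisense gene Nkx2-2os, listed as Nkx2-2as, whose level went from 4.74 ± 1.17 to 7.30 ± 0.586 RPKM (log2 0.47, SE 0.16, FDR 0.0522, not called). Reads of the shared bases cannot be assigned to either gene.

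Of the members, Olig2 came closest to Nkx2-2 in pattern over the libraries, and the start regions of these genes are shown side by side for that reason. They run from 250 bases before to 50 bases after the annotated start (RefSeq, GRCm38.p6), 5' to 3' on the strand of the gene, at chr16:91225300-91225599 (plus) for Olig2 and chr2:147186353-147186652 (minus) for Nkx2-2. The Nkx2-2 window lies inside the gene span printed above, which is from GENCODE and has its 5' end at chr2:147194243. It is thus not at the start of that span. Capitals mark CANNTG, the E-box that helix-loop-helix factors bind, and AACAAT or its reverse complement ATTGTT, a core of Sox family sites. Olig1, Sox10, Myrf and St18 are without an entry.

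Olig2: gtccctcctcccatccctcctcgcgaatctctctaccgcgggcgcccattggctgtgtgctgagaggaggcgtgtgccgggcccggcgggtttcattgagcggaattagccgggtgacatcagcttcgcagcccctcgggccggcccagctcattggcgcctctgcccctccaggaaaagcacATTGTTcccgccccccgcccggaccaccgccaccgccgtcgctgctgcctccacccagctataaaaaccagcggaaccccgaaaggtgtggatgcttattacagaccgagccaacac

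Nkx2-2: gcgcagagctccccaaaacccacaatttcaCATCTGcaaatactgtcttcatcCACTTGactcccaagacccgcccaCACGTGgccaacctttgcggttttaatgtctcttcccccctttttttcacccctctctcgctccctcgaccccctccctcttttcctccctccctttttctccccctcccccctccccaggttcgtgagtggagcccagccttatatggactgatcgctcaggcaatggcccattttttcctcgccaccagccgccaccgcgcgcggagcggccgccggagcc

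The window of Nkx2-2 holds 3 E-boxes and no AACAAT, and that of Olig2 holds 1 AACAAT, on the reverse strand, and no E-box. Among the 32851 windows that RefSeq gives for the mouse, 72.3% hold CANNTG and 10.7% hold AACAAT on either strand. The windows of these genes, both of which rose, share neither motif.

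Nkx6-2 (chr7:139579376-139582797, minus strand), a homeodomain factor of differentiating oligodendrocytes, was the least abundant of the 10 and was lower in siQk. Its level was 1.56, 1.83 and 1.73 RPKM in siNC replicates 1, 2 and 3 and 1.14, 0.913 and 1.41 RPKM in siQk replicates 1, 2 and 3, without overlap. The decrease was 1.63-fold (log2 −0.71, SE 0.19, FDR 0.0285). The call was lost in every fit that left out a library, apart from the one without siQk replicate 3, with log2 values of −0.56 to −0.73 and FDR of 0.0495 to 0.0954 in those without siNC replicate 1, 2 or 3 and siQk replicate 1 or 2. It was also lost with upper quartile factors (−0.65) and with library size alone (−0.56). Of its exon bases 12.9% overlap Inpp5a, an inositol phosphatase gene on the opposite strand. The mean of Inpp5a went from 23.8 ± 2.29 to 15.4 ± 2.40 RPKM (log2 −0.78, SE 0.12, FDR 0.00419), so that it moved in the same direction from a higher level. Without strand, reads of the shared 246 bases cannot be told apart.

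Sox10 (chr15:79154908-79165240, minus strand), which marks the lineage at every stage, was at 158, 174 and 141 RPKM in siNC replicates 1, 2 and 3 and at 168, 184 and 168 RPKM in siQk replicates 1, 2 and 3. The groups overlapped, and the log2 fold change of −0.02 (SE 0.10, FDR 0.894) was smaller in size than that of all but 4.09% of tested genes. Its sign changed with the scaling, from −0.02 with TMM to 0.14 with library size alone. Of its SoxE relatives, which have overlapping roles in glia, Sox8 and Sox9 rose. Sox8 went from 119 ± 6.71 to 211 ± 10.4 RPKM (log2 0.67, SE 0.089, FDR 0.00271) and Sox9 from 6.23 ± 0.423 to 9.29 ± 0.781 RPKM (log2 0.42, SE 0.10, FDR 0.0190).

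The other factors were also set against Sox10 in the same library, which no library scaling enters. Dividing all of them by the same gene cannot change the order of their changes, so that order is no separate support. Sox10 was chosen as the denominator after the levels were seen, and its log2 fold change with TMM factors was −0.02. Olig2 over Sox10 was 0.821, 0.713 and 1.01 in siNC and 1.40, 1.36 and 1.33 in siQk, so that Olig2 stood above Sox10 in all siQk libraries and in 1 of 3 siNC libraries, replicate 3, where the levels were nearly equal. Olig1 over Sox10 went from 1.71 ± 0.204 to 2.32 ± 0.104 and Nkx2-2 over Sox10 from 0.150 ± 0.0527 to 0.274 ± 0.0160. St18 over Sox10 went from 0.0235 ± 0.00578 to 0.00842 ± 0.00178, and Nkx6-2 over Sox10 from 0.0109 ± 0.00120 to 0.00672 ± 0.00173. These 5 quotients, and that of Zeb2, did not overlap between groups (exact two-sided permutation p = 0.1 each, the smallest possible), while those of Myrf, Zfp488 and Tcf7l2 did (exact p = 0.2, 0.8 and 1). The 6 of 9 stand beside 38.3% of the 12504 tested genes other than Sox10, whose quotients did not overlap either.

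**Figure D3:**
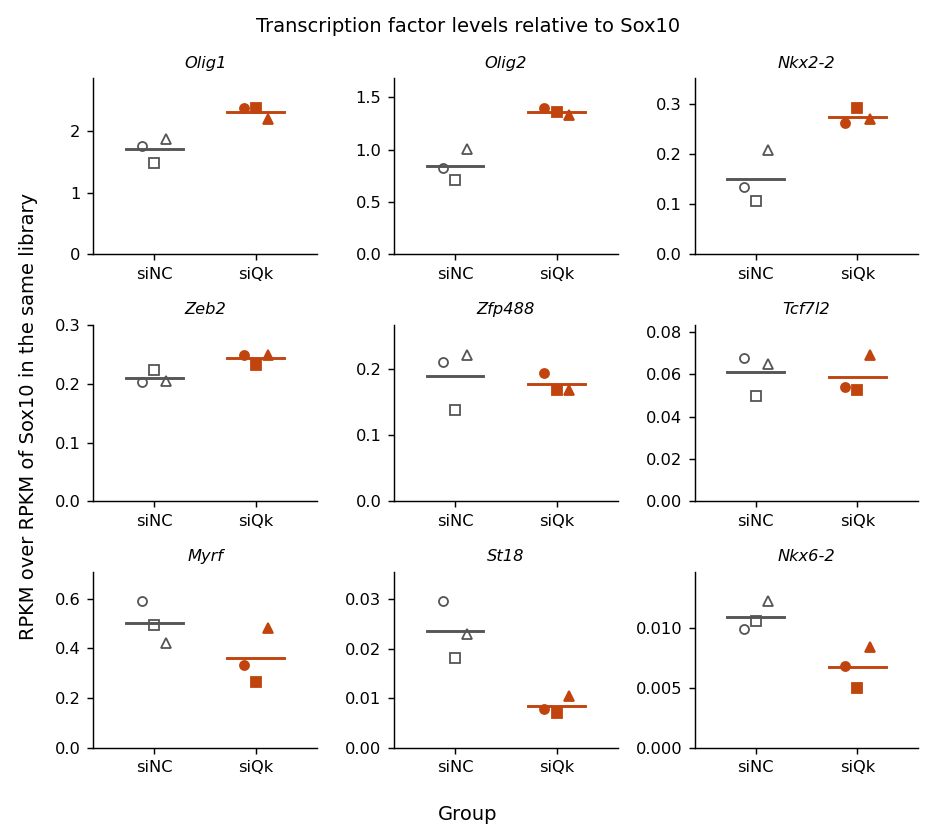
RPKM of each of 9 transcription factors divided by the RPKM of Sox10 in the same library, for siNC (open grey) and siQk (filled red), with a bar at the group mean and axes that start at 0. Olig2 over Sox10 rises from a mean of 0.848 to 1.36, St18 over Sox10 falls from 0.0235 to 0.00842, and the points of Zfp488, Tcf7l2 and Myrf overlap.

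Myrf (chr19:10208272-10240748, minus strand), the membrane-bound factor that switches on myelin genes, did not pass the test. It was at 93.2, 85.6 and 59.7 RPKM in siNC replicates 1, 2 and 3 and at 56.0, 48.8 and 81.1 RPKM in siQk replicates 1, 2 and 3. siNC replicate 3 was the lowest control and siQk replicate 3 the highest treated library, above siNC replicate 3. The log2 fold change was −0.52 (SE 0.25, FDR 0.148), and the value went the same way, without a call, in each fit that left out a library. Without siNC replicate 3 it was −0.71 (FDR 0.0536), and without siQk replicate 3 −0.77 (FDR 0.0602).

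siNC replicate 3 was also the lowest control, and siQk replicate 3 the highest siQk library, for several genes tied to Myrf. Tmem98, a membrane protein that binds Myrf and blocks its cleavage, was at 12.4, 12.1 and 2.89 RPKM in siNC replicates 1, 2 and 3 and at 3.14, 1.50 and 5.52 RPKM in siQk replicates 1, 2 and 3 (log2 −1.58, SE 0.66, FDR 0.10, not called). Mbp, a major myelin protein and a target of Myrf and Sox10, was at 233, 209 and 86.5 RPKM in siNC and at 31.9, 18.2 and 78.0 RPKM in siQk. It was called lower (log2 −2.21, SE 0.62, FDR 0.0312), with siNC replicate 3 just above siQk replicate 3. Mag, the myelin-associated glycoprotein, had siNC values of 174, 158 and 55.6 RPKM and siQk values of 16.8, 15.7 and 40.0 RPKM (log2 −2.58, SE 0.56, FDR 0.0136). Mog, a late myelin surface protein, was at 29.6, 40.0 and 5.85 RPKM in siNC and at 12.5, 5.89 and 19.2 RPKM in siQk, which overlapped (log2 −1.16, FDR 0.234). In the whole list of 16 myelin and premyelinating genes 14 were tested, 9 fell, none rose and 5 were not called, with a median log2 fold change of −1.30. Among all tested genes 17.2% were called lower and 13.8% higher. Of the 9 listed genes that fell, Mobp, a myelin protein of oligodendrocytes, had the lowest value (log2 −4.59, SE 1.14, FDR 0.0212) and Ugt8a, which makes galactolipids of myelin, the smallest change (−0.80, SE 0.18, FDR 0.0154). Over all 16 genes siNC replicate 3 was the lowest control for 12 and siQk replicate 3 the highest siQk library for 15. Cldn11, Opalin, Bcas1 and Itpr2 had siNC replicate 2 as the lowest control instead. Most of the list was lower. Myrf (log2 −0.52, FDR 0.148), Sox10 (−0.02, FDR 0.894) and Tcf7l2 (−0.07, FDR 0.722) did not pass the test, which does not show that they were unchanged. A link between these factors and the list was not tested. Whether replicate numbers mark a shared culture is not stated.

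**Figure D4:**
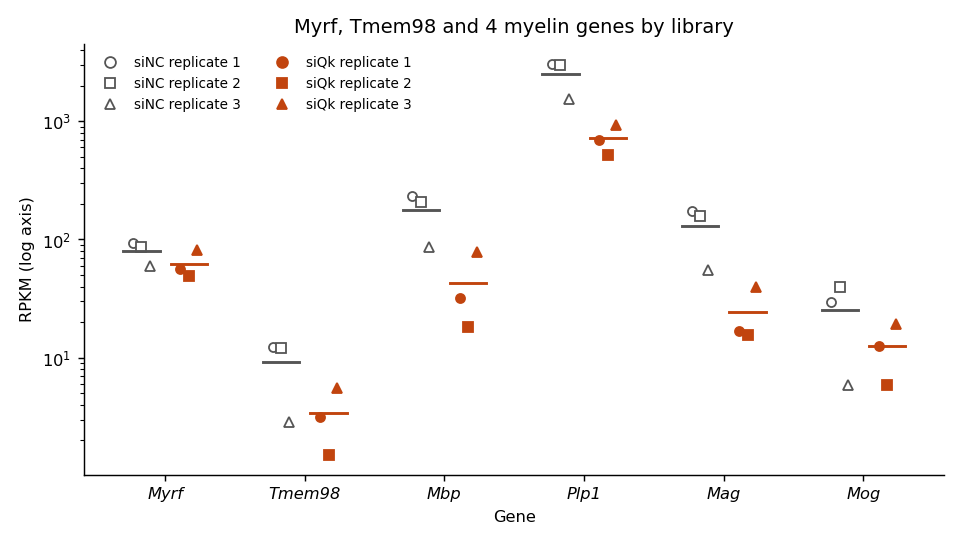
RPKM of Myrf, Tmem98 and 4 myelin genes in each library on a log axis, with open grey symbols for siNC, filled red symbols for siQk, 1 symbol shape per replicate number and a bar at the group mean. For these 6 genes siNC replicate 3 (open triangle) is the lowest control, as for 12 of the 16 genes of the whole myelin list, and siQk replicate 3 (filled triangle) is the highest siQk library, and for Myrf, Tmem98 and Mog the groups overlap.

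St18 (chr1:6487231-6860940, plus strand) fell the most of the 10. It was at 4.67, 3.13 and 3.25 RPKM in siNC replicates 1, 2 and 3 and at 1.33, 1.28 and 1.74 RPKM in siQk replicates 1, 2 and 3, so that the highest siQk library was well under the lowest control. The decrease was 2.83-fold (log2 −1.50, SE 0.22, FDR 0.00395), larger in size than that of 96.9% of tested genes. It passed in every alternative tried, with log2 values of −1.25 to −1.66. Myt1, its relative in precursors, moved the other way. It was at 48.6, 69.7 and 42.1 RPKM in siNC and at 110, 93.5 and 108 RPKM in siQk (log2 0.81, SE 0.19, FDR 0.0179). Myt1l, the neuronal member of the family, stayed under 0.1 RPKM in every library and was not tested.

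Zeb2 (chr2:44983632-45117395, minus strand), which antagonises Smad signalling in differentiating oligodendrocytes, was at 32.0, 38.9 and 29.0 RPKM in siNC replicates 1, 2 and 3 and at 42.0, 42.9 and 42.0 RPKM in siQk replicates 1, 2 and 3. The deposited RPKM did not overlap, but Zeb2 was not called (log2 0.19, SE 0.12, FDR 0.233), and after scaling by TMM factors siNC replicate 2 reached 40.4 RPKM, above all 3 siQk libraries. Smad7, which Zeb2 induces, was at 5.07, 6.19 and 2.37 RPKM in siNC and at 2.78, 1.98 and 3.72 RPKM in siQk and was not called (log2 −0.84, SE 0.39, FDR 0.131). Zeb1, the paralog of Zeb2, was not called either (log2 −0.24, SE 0.075, FDR 0.0467, P 0.0168). Of the exon bases of Zeb2, 3.27% overlap the antisense gene Zeb2os.

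Besides Olig2, St18 and Zeb2 were the members with ACTAAC or ACTAAT in the longest annotated 3'UTR, and they are shown because one fell and the other did not pass the test. St18 holds 2 matches in 2340 nt, at chr1:6858704-6858733 and chr1:6858889-6858918 on the plus strand. Zeb2 holds 4 in 4941 nt, of which the ACTAAC lies at chr2:44985131-44985160 on the minus strand. Capitals mark the match.

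St18 first match: ttgcaacattgcACTAATttttccccagct
St18 second match: attttatttattACTAATcaaagagttttt
Zeb2 ACTAAC match: ttctcagccagaACTAACagcgttcatctc

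The length of these 3'UTRs bears on such counts. Among tested genes with a 3'UTR within 25% of the same length, 50.3% held a match for St18 and 74.6% for Zeb2, and as many matches or more were held by 19.3% and 8.86%. Myrf (2113 nt), Sox10 (1030 nt), Nkx2-2 (912 nt), Nkx6-2 (214 nt), Zfp488 (3121 nt) and Tcf7l2 (2239 nt) held none, like Olig1. Of the 5 members that were called, Olig2, which rose, and St18, which fell, held a match, and Olig1, Nkx2-2 and Nkx6-2 held none. A further TAAC or TAAT lay close to both St18 matches, but not to that of Olig2 or the printed Zeb2 match. Another Zeb2 match, not printed, had it too. This motif was sought in the 3'UTR alone, and a link to Qki was not tested.

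Zfp488 and Tcf7l2, factors of differentiating oligodendrocytes, did not pass the test. Zfp488 (chr14:33967070-33978764, minus strand) was at 33.1, 23.9 and 31.3 RPKM in siNC replicates 1, 2 and 3 and at 32.4, 30.9 and 28.1 RPKM in siQk replicates 1, 2 and 3 (log2 −0.10, SE 0.14, FDR 0.586). Tcf7l2 (chr19:55741820-55933654, plus strand) was at 10.7, 8.66 and 9.21 RPKM in siNC replicates 1, 2 and 3 and at 9.06, 9.68 and 11.6 RPKM in siQk replicates 1, 2 and 3 (log2 −0.07, SE 0.14, FDR 0.722). Both overlapped between groups, and the sign of both was positive with library size alone (0.052 and 0.088). Ctnnb1 (beta-catenin), the partner of Tcf7l2 in Wnt signalling, fell from 216 ± 12.3 to 193 ± 11.6 RPKM (log2 −0.31, SE 0.070, FDR 0.0157). Of 8 Wnt target genes 5 were tested, of which Axin2 (log2 −0.64, FDR 0.00228) and Apcdd1 (−0.60, FDR 0.00968) fell, Lgr5 rose (0.86, FDR 0.0218) and 2 were not called. The shares over all tested genes were 17.2% lower and 13.8% higher.

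The remaining relatives of the 10 were mostly silent. Of 13 family relatives 5 were tested, of which Myt1, Sox8 and Sox9 rose, none fell, and Tcf7l1 and Zeb1 were not called, with a median log2 fold change of 0.42. Among all tested genes 13.8% were called higher. Olig3 and Nkx6-1, relatives that pattern the ventral neural tube, were listed at 0 in all 6 libraries.

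Partners and cofactors were mostly higher where they passed. All 16 were tested, of which 7 rose, 1 (Ctnnb1) fell and 8 were not called, with a median log2 fold change of 0.17. These counts stand beside 13.8% of all tested genes called higher and 17.2% called lower. The E proteins Tcf4, Tcf12 and Tcf3, which pair with Olig factors on E-boxes, all rose. Tcf4 had the highest log2 fold change of the list, with siNC libraries at 64.3, 67.0 and 59.4 RPKM and siQk libraries at 113, 93.5 and 115 RPKM (log2 0.60, SE 0.11, FDR 0.00885). Tcf12 went from 91.8 ± 4.0 to 132 ± 13.1 RPKM (log2 0.37, FDR 0.0202) and Tcf3 from 35.0 ± 1.13 to 47.1 ± 1.14 RPKM (log2 0.27, FDR 0.0152). The remaining called members were chromatin regulators that act with these factors, Smarca4, Hdac2, Chd7 and Hdac1.

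Of 9 inhibitors of differentiation, Hes5 alone was called. Hes5, a Notch effector that holds precursors undifferentiated, was at 22.0, 27.2 and 19.7 RPKM in siNC and at 94.7, 91.9 and 98.6 RPKM in siQk (log2 1.90, SE 0.13, FDR 0.000446). None of the 9 was called lower, and the median log2 fold change was 0.08. Of 8 precursor markers Cspg4 (NG2) rose (log2 0.93, FDR 0.00410), Lhfpl3 fell (−1.07, FDR 0.00117) and 6 were not called, Pdgfra among them (0.10, SE 0.16, FDR 0.636). The precursor factors that rose thus stood beside a list of precursor markers with a median of 0.11. Of the 6 astrocyte markers tested 4 fell, with Gfap lowest (log2 −2.95) and Slc1a2 least changed of those called (−1.06), and of the 7 neuron markers tested 3 rose, from Map2 (0.57) to Snap25 (2.64). The microglia marker P2ry12 fell (log2 −3.16), and Kdr of the vascular list was not called (0.06). Beside the counts of these lists, 13.8% of all tested genes were called higher, 17.2% lower and 31.0% in either direction.

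**Figure D5:**
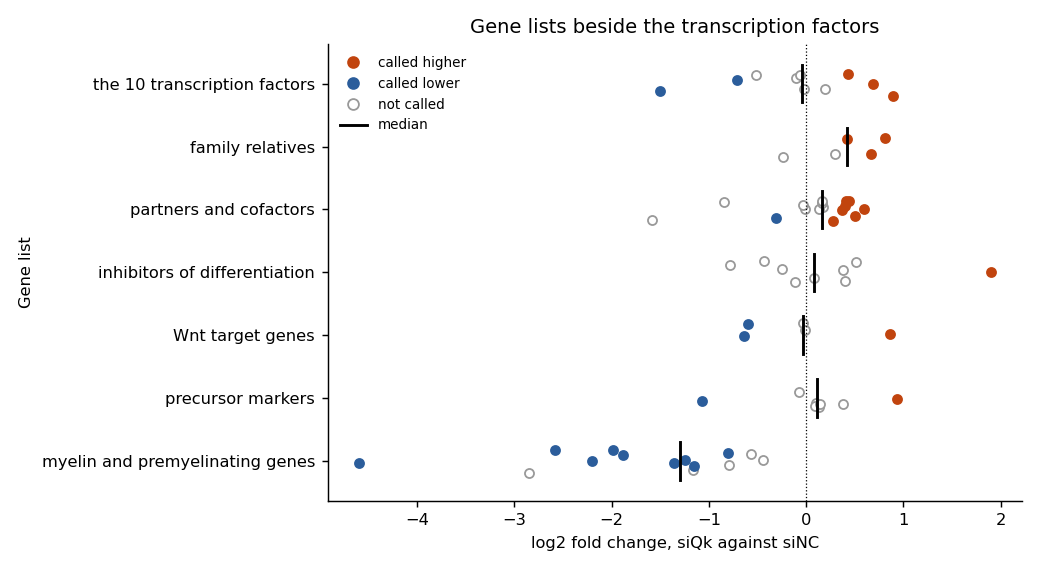
Log2 fold change of every tested gene in 7 lists, in siQk against siNC, with filled red points for genes called higher, filled blue points for genes called lower, open points for genes not called and a black bar at the median of each list. The myelin list lies below 0 with a median of −1.30, the partners have a median of 0.17, and the 10 transcription factors lie on both sides with a median of −0.04.

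For each factor the gene with the most similar pattern was sought among all tested genes, by the root mean square difference of centred log2 CPM over the 6 libraries, where 0 is the same pattern. The nearest genes were AI506816 for Olig1 (0.0248), 5930416I19Rik for Olig2 (0.0387), Bex1 for Nkx2-2 (0.0715), Mrpl10 for Sox10 (0.0144), Disp1 for Zeb2 (0.0353), Vrk2 for Zfp488 (0.0456) and Dnmt3a for Tcf7l2 (0.0370). For Myrf and St18 they were Kcna2 (0.0921) and Kcna1 (0.0958), which encode voltage-gated potassium channels, and for Nkx6-2 Eogt (0.0796). Among the 10 themselves, Olig1 and Olig2 were nearest to each other (0.144), Sox10 and Zeb2 (0.122) and Zfp488 and Tcf7l2 (0.190) likewise. The distance from a flat pattern was 0.237 for Olig1 and 0.350 for Olig2, but 0.112 for Sox10, 0.167 for Zeb2, 0.181 for Zfp488 and 0.174 for Tcf7l2. Sox10, Zfp488 and Tcf7l2 were thus nearer to a flat pattern than to any other member. Myrf and Nkx6-2 were nearest to each other at 0.260, and St18 stood farthest from any member, at 0.459 from Nkx6-2. These distances describe 6 libraries and carry no test.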

How the data were processed

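RNA was measured in 6 mOPC libraries (3 siNC, 3 siQk; TruSeq v2, 75-nt paired-end reads). Reads were mapped to mm10 by OLego, and Quantas gave gene levels; versions and annotation are not given in the sources used here. Each deposited table holds, per gene, an estimated count (tag number, not normalized by the authors), the exon length and RPKM, which equal the tag number divided by exon length and library total on recomputation.

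Estimated counts were rounded. Genes with average logCPM over 0 (12505) were tested with edgeR 4.0.16 (limma 3.58.1, R 4.3.3), quasi-likelihood, TMM factors and group as the only term, and called at P below 0.01 and Benjamini-Hochberg FDR below 0.1 over all tested genes. The SE was taken as the size of the log2 value over the root of F. The procedure was tested on simulated data. Single values were compared by exact two-sided permutation, whose minimum is 0.1. No replicate pair agreed within sampling noise (chi-square per degree of freedom 38.1 or more). Each member had 3032 or more tags in every library, apart from St18 (640 or more) and Nkx6-2 (144 or more), and with 3 libraries a group the spread between libraries limits precision. Members, lists and tests were chosen with earlier results of these data known.

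Named genes were the 10 factors, Qk, the called genes with the highest and lowest fold change of each list, and up to 3 further listed genes with a known link to a factor. The overlapping genes, Rn45s, markers at or near 0 and further genes named inside a list count or sum were named after their values were seen. Motifs were sought in the longest 3'UTR (GENCODE M21) and in RefSeq promoter windows. Alternatives were other scalings, tests, filters and cutoffs, a replicate block and leaving out each library. Exons and isoforms were not analysed here.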

Additional observations from a re-analysis of the deposited data

How the results depend on the processing

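Of 180 log2 fold changes of the 10 factors over 18 alternatives, 154 kept direction and side of the threshold, 15 lost the call, 0 gained it and 11 reversed. The reversals were all of values near 0. Sox10 was 0.043 with upper quartile factors, 0.14 with library size alone, 0.0044 without a filter, and 0.0030 to 0.041 without siNC replicate 1 or 2 or siQk replicate 1 (range over all 6 libraries left out −0.11 to 0.041). Zfp488 was 0.052 with library size alone and 0.034 without siNC replicate 1 (range −0.25 to 0.034), and Tcf7l2 was 0.088, 0.070 and, without siQk replicate 1, 0.0055 (range −0.19 to 0.070). The cause was not tested.

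The number of factors called lower was 1 instead of 2 with upper quartile factors, library size alone and a cutoff of FDR below 0.05 with an absolute log2 value of at least 1, and 1 to 2 when 1 library was left out. The number called higher was 0 with that double cutoff, and 2 to 3 when 1 library was left out. With FDR below 0.05 alone 2 factors were lower and 3 higher. Over all tested genes, 946 were called with the double cutoff (620 lower, 326 higher) and 4616 with FDR below 0.05 alone, and library size alone gave 1365 lower and 2989 higher. Leaving out 1 library gave 2478 to 3704 calls, 1470 to 2094 lower and 1008 to 1610 higher, the fewest without siQk replicate 1. A replicate block gave 2796 calls against 3879, and Nkx6-2 lost its call (−0.73, FDR 0.0682), leaving 1 factor lower. Correlations of deviations between same-numbered libraries were −0.0528, −0.152 and −0.340. Without those of differently numbered libraries beside them, they cannot show whether the numbers pair the samples. Thinning to the smallest library and leaving out Rn45s, both chosen after seeing the data, gave 3809 and 3881 calls. Of 100 mean RPKM values 98 moved by less than the SD. With 3 libraries a group, the spread between them limits these results more than depth does. For Nkx6-2, which had the fewest tags, the spread counts as well. Its call was kept after thinning (log2 −0.74, FDR 0.0221). It was lost in each fit that left out a library, apart from the one without siQk replicate 3.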
